A study of Mus musculus with 6 samples.

Results

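The genes described are the enzymes of glycolysis with the carriers that bring glucose into the cell and move lactate out of it, 33 gene symbols in all. They were taken by symbol from the gene expression table, where they fill 34 of 54532 rows because Aldoa is listed under 2 gene identifiers. The libraries hold RNA of T cells collected after culture together with ID8, an ovarian cancer line from mouse. In 3 libraries (CIS1 to CIS3, called cisplatin here) the sample treatment is given as 40 µM cisplatin, and in 3 (WT1 to WT3, called control) as PBS. By the study's text it was the ID8 cells that were pretreated. In both groups the T cells came from spleens of C57BL/6 mice aged 6 to 8 weeks, isolated with a pan T-cell kit. They were kept in medium with IL-2 and pre-activated with anti-CD3/28 beads, and messenger RNA of the collected cells was sequenced in bulk. The sources used here do not give the number of mice behind each library, the mouse sex, the ratio of T cells to ID8 cells or the length of the co-culture.

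Glycolysis splits glucose into pyruvate in the cytosol and yields ATP without oxygen. Lactate dehydrogenase then turns pyruvate into lactate, or the mitochondria oxidise it through pyruvate dehydrogenase. Most steps have several isoforms encoded by separate genes that differ in tissue and regulation. Activated T cells and many tumour cells take up much glucose and release lactate even when oxygen is present, and the factors MYC and HIF1A are known to raise transcription of many of these genes.

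Levels are given as FPKM, fragments scaled to gene length and to the fragment total of the library, so that genes can be compared per length. Differences are given as log2 fold changes of cisplatin over control on the log2(FPKM + 0.1) scale, which understates the change of genes with low levels. A gene was called when its Benjamini-Hochberg adjusted p-value in limma was under 0.05 and its level differed at least 2-fold. Each library held 30606569 to 32169496 reads on genes, rebuilt from the FPKM.

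At every step from glucose uptake to lactate release, the isoform with the highest control level was lower in the T-cell co-cultures with cisplatin-pretreated ID8 cells. Ranked by cisplatin level, Slc2a3, Hk1, Pfkp and Slc16a1 led their steps instead, and they were lower too. Of the 34 rows, 22 were called lower, against a background of 12.8% of the 15874 genes tested. The 2 genes called higher were Hk3 and Pgam2, against 4.11% of all genes. At the adjusted p alone, 26 rows were lower (29.0% of all genes) and 5 were higher (27.5% of all genes), and 3 did not pass. All 3 cisplatin libraries lay below all 3 control libraries in 26 rows (32.3% of all genes) and above them in 5 rows (31.9% of all genes). The median log2 fold change over the 34 rows was -1.23, where the median of all genes tested was 0.03. Summed over the rows, the genes took up 2.05% ± 0.018 (SD, n = 3) of the reads in control and 0.594% ± 0.0035 (SD, n = 3) in cisplatin.

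**Figure D1:**
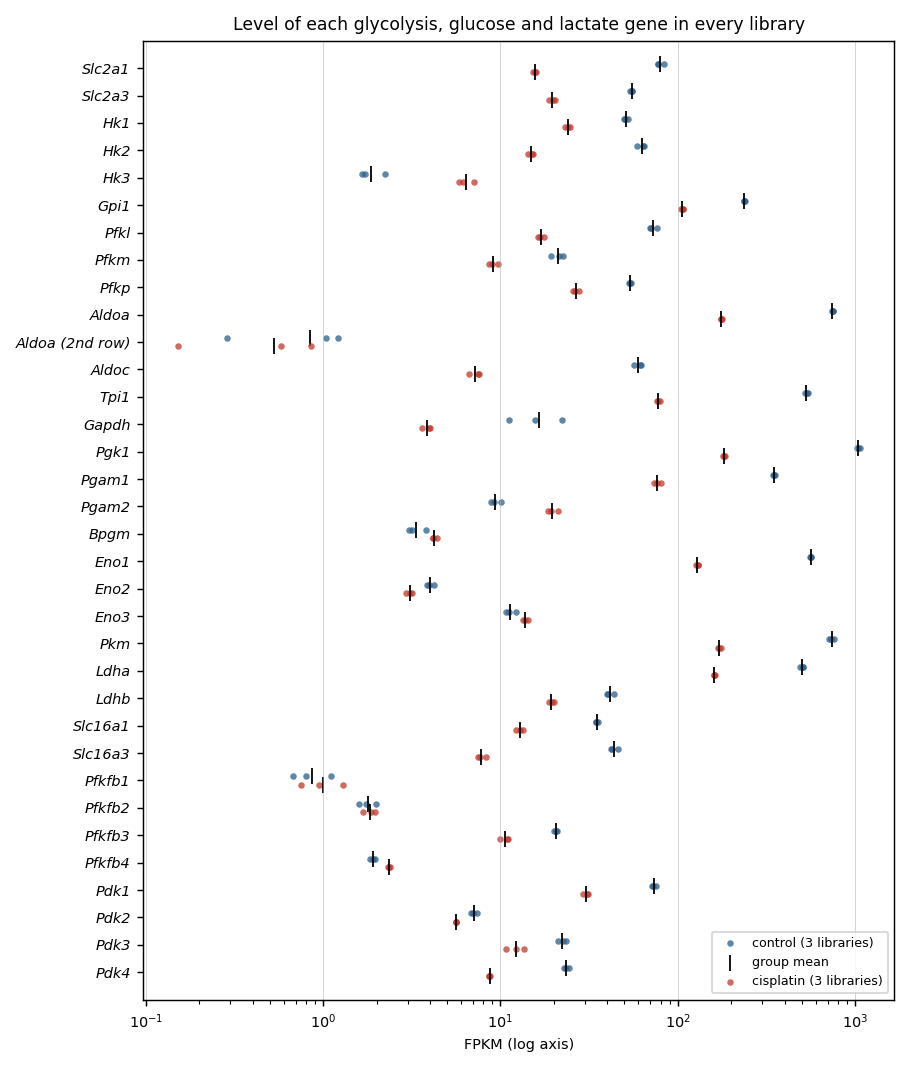
Level of each gene in FPKM on a log axis in the 3 control libraries (blue) and the 3 cisplatin libraries (red), in pathway order, with the group mean as a black line. Most highly expressed genes, such as Pgk1 at 1042 FPKM in control and 182 FPKM in cisplatin, sit to the left in the cisplatin libraries, whereas Hk3 and Pgam2 sit to the right.

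Genes that mark the cells of the co-culture moved as well, and bulk RNA cannot tell fewer cells of a type from less RNA per cell. Of 18 genes chosen as ID8 tumour cell markers, 15 were tested and 14 were called lower (12.8% of all genes), with a median log2 fold change of -2.34. Their summed level was 1579 to 1647 FPKM in the control libraries and 228 to 237 FPKM in the cisplatin libraries. The epithelial keratin Krt19 was at 651, 661 and 626 FPKM in control and at 54.5, 51.6 and 52.5 FPKM in cisplatin. All 20 T-cell identity genes were higher at the adjusted p (27.5% of all genes), with a median of 0.55. Their summed levels were 1627 to 1746 FPKM in control and 2574 to 2647 FPKM in cisplatin. B-cell markers were also present in these T-cell libraries, at summed levels of 1668 to 1751 FPKM in control and 3593 to 3671 FPKM in cisplatin. At the adjusted p 9 of 10 were higher (27.5% of all genes), while Fcer2a was called lower (-1.06). Most of these sums was the immunoglobulin gene Ighm, and the other 9 markers summed to 267 to 283 FPKM in control and 397 to 426 FPKM in cisplatin. Of 10 myeloid markers, 8 were tested and 6 were higher at the adjusted p (27.5% of all genes). Cd14 was lower (-0.47, with 29.0% of all genes lower) and Cd68 did not pass (0.004). The myeloid sums were 65.8 to 71.0 FPKM in control and 122 to 140 FPKM in cisplatin. Without Lyz2 the sums were 35.1 to 38.4 FPKM in control and 39.8 to 42.7 FPKM in cisplatin. In none of the 4 lists was any marker at 0 in all 6 libraries. The share that each of these cells had in the change of glycolysis transcripts was not tested.

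The promoters of these genes were searched for a motif. The genes were not chosen by promoter sequence, but many are known targets of HIF1A and MYC. The choice of genes is therefore not independent of the motif. RefSeq start sites of GRCm38.p6 gave 51 promoter windows of 300 bases (250 before and 50 after the start) for 32 of the 33 symbols. Slc2a3 had no entry. The motif ACGTG, the core of the hypoxia response element and also part of the E-box CACGTG, was searched on both strands. It occurred in 22 of 51 windows (43.1%) and in 19.6% of all 32851 windows. The full E-box CACGTG was in 6 windows (11.8%) and in 7.15% of all windows, and the variant core GCGTG was in 51.0% and 32.4%. The windows of these genes were also richer in G and C, with a median of 57.7% against 52.7% for all windows. The motif was found in 15 of the 33 windows of genes called lower (45.5%) and in 7 of the 18 windows of the other genes (38.9%). Counted by gene, it was in 13 of 21 called lower (61.9%) and in 5 of 11 others (45.5%). For the E-box CACGTG the order was the other way, with 9.09% of the windows of genes called lower and 16.7% of the others. A match is a description of the sequence and does not show binding.

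Of the windows below, Pgk1 and Ldha show falling genes with the motif and Tpi1 shows a falling gene without it. Pgam2 shows a gene that rose, also without the motif. The windows are examples and not a comparison. All are given 5′ to 3′ on the gene's strand, with ACGTG or its reverse complement CACGT in capitals. The Pgk1 window lies at chrX:106186850-106187149 on the plus strand, and that of Ldha at chr7:46845554-46845853 on the plus strand. The Tpi1 window lies at chr6:124814109-124814408 and the Pgam2 window at chr11:5803747-5804046, both on the minus strand.
Pgk1: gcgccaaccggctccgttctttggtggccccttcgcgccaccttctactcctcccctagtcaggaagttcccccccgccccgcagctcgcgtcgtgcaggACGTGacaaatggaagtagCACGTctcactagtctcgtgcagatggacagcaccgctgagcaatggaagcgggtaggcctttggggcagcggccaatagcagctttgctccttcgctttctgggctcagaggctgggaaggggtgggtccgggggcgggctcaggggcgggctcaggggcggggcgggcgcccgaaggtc
Ldha: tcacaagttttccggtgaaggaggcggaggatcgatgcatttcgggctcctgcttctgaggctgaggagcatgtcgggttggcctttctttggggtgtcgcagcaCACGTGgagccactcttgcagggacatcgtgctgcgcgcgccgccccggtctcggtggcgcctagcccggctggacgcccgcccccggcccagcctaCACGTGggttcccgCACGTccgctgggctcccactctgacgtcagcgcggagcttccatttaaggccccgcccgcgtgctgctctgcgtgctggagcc
Tpi1: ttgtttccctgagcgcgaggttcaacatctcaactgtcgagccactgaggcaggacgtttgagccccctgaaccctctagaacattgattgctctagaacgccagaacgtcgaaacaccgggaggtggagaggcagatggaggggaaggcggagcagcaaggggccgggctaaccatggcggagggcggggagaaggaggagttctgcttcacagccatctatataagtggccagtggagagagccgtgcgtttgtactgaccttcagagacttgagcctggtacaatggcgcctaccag
Pgam2: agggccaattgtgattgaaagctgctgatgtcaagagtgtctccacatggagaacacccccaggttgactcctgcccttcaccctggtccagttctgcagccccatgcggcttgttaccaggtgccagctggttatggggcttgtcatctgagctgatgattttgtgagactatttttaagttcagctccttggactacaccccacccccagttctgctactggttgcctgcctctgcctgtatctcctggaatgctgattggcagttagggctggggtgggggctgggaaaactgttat
Counted from the start site, the Pgk1 window held the motif at -150 and -131. The Ldha window held it at -145, -144, -48, -47 and -34, where the adjoining pairs are the same E-box read on both strands. Hk3, the other gene called higher, is not shown, and its window held the motif at -156.

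Both glucose carriers were lower. Slc2a1 (ENSMUSG00000028645, chr4:119108711-119137983, plus strand, all positions in GRCm38) encodes GLUT1, the main glucose carrier of activated lymphocytes and many tumour cells. It was at 77.4, 84.0 and 77.0 FPKM in control and at 15.6, 15.8 and 15.4 FPKM in cisplatin, a log2 fold change of -2.34 ± 0.04 (SE, adjusted p = 1.2e-07). Slc2a3 encodes the high-affinity carrier GLUT3. It was at 55.6, 53.8 and 55.5 FPKM in control and at 18.8, 19.9 and 20.2 FPKM in cisplatin, a log2 fold change of -1.48 ± 0.04 (SE, adjusted p = 3.8e-07). The groups were far apart for both genes, and the order of the carriers turned around. Slc2a1 held 59.1% ± 1.63 (SD, n = 3) of the summed FPKM of the pair in control and 44.3% ± 1.11 in cisplatin. The log2 ratio of Slc2a3 to Slc2a1 was 0.86 higher in cisplatin.

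This ratio and 16 others compared isoforms of the same step within each library, so that library scaling cancels out. In all 17 pairs the 3 cisplatin ratios lay outside the range of the 3 control ratios. Among the levels of all genes tested, 32.3% lay fully below and 31.9% fully above control in this way. No such share was computed for ratios. Several pairs have the same denominator, such as Pfkfb3 or Pdk1, so they are not 17 separate observations. An exact two-sided permutation test gave p = 0.1 for each pair, also after adjustment over the 17 pairs, and 0.1 is the smallest value that 3 against 3 libraries allow. In 13 pairs the ratio was higher in cisplatin, with the isoform of higher control level as the denominator in each of them. The control level is itself part of the comparison, so this order is a description only. The ratio was lower in 4 pairs, Hk2 to Hk1, Aldoc to Aldoa, Slc16a3 to Slc16a1 and Pdk4 to Pdk1.

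Hexokinase phosphorylates glucose and so traps it in the cell. Hk2, the inducible form bound to mitochondria, was at 64.3, 63.9 and 59.1 FPKM in control and at 15.1, 14.3 and 15.3 FPKM in cisplatin (log2 fold change -2.06 ± 0.05 SE, adjusted p = 2.7e-07). Hk1, the broadly expressed form, was at 50.3, 52.5 and 49.7 FPKM in control and at 23.2, 24.2 and 24.8 FPKM in cisplatin (-1.08 ± 0.04 SE, adjusted p = 1.5e-06). Hk2 was above Hk1 in each control library and below it in each cisplatin library, and the log2 ratio of Hk2 to Hk1 changed by -0.99.

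Hk3 (ENSMUSG00000025877, chr13:55005985-55021385, minus strand), a hexokinase known from leukocytes and mainly from myeloid cells, went the other way. It was at 1.73, 2.22 and 1.66 FPKM in control and at 5.82, 7.12 and 6.12 FPKM in cisplatin (log2 fold change 1.72 ± 0.13 SE, adjusted p = 5.6e-05). The groups did not overlap, and Hk3 grew from 1.62% to 14.0% of the summed hexokinase FPKM. Among the myeloid markers, the lysozyme gene Lyz2 was at 30.7, 29.0 and 32.6 FPKM in control and at 92.5, 97.2 and 79.2 FPKM in cisplatin (1.54, adjusted p = 9.2e-06). Cd14, another myeloid marker, was lower in cisplatin (-0.47, adjusted p = 0.0038). The part of myeloid cells in the Hk3 level was not tested.

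The next 3 steps turn glucose-6-phosphate into triose phosphates. Gpi1, glucose-6-phosphate isomerase, has a single gene and fell less than most abundant genes of the pathway, from 237 ± 1.58 FPKM to 106 ± 1.63 FPKM (SD, n = 3 each, log2 fold change -1.16, adjusted p = 2.4e-07). Phosphofructokinase makes the committed step. Its liver form Pfkl was at 70.7, 76.1 and 69.7 FPKM in control and at 16.3, 17.6 and 16.7 FPKM in cisplatin (-2.09 ± 0.05 SE, adjusted p = 2.6e-07). The platelet form Pfkp was at 53.6, 52.9 and 54.4 FPKM in control and at 25.7, 27.8 and 26.5 FPKM in cisplatin (-1.01 ± 0.04 SE, adjusted p = 1.7e-06). The control and cisplatin ranges were apart for both, but Pfkp stood at the 2-fold limit of a call. Without cisplatin replicate 1 its log2 fold change was -0.98 and without control replicate 3 it was -0.996, so that it was not called in these fits. The muscle form Pfkm fell from 21.1 ± 1.68 FPKM to 9.10 ± 0.491 FPKM (-1.20, adjusted p = 1.4e-05). Pfkl was the leading form in control with 49.1% of the summed FPKM and fell to 32.0%, whereas Pfkp went from 36.6% to 50.7%.

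Aldolase cleaves fructose-1,6-bisphosphate. Aldoa, the form of muscle and most dividing cells, was at 739, 746 and 748 FPKM in control and at 175, 178 and 175 FPKM in cisplatin (log2 fold change -2.08 ± 0.03 SE, adjusted p = 5.9e-08). Aldoc (ENSMUSG00000017390, chr11:78322968-78327781, plus strand), known as the brain form, was at 56.6, 62.1 and 60.9 FPKM in control and at 6.64, 7.54 and 7.43 FPKM in cisplatin. Its log2 fold change of -3.04 ± 0.06 (SE, adjusted p = 1.6e-07), or 8.31-fold lower, was the largest fall among the 34 rows. The groups were apart for both, and the log2 ratio of Aldoc to Aldoa changed by -0.96. The second Aldoa row (ENSMUSG00000114515), which lies next to the first on chromosome 7, was between 0.285 and 1.21 FPKM in control and between 0.151 and 0.851 FPKM in cisplatin. Its groups overlapped (adjusted p = 0.48).

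**Figure D2:**
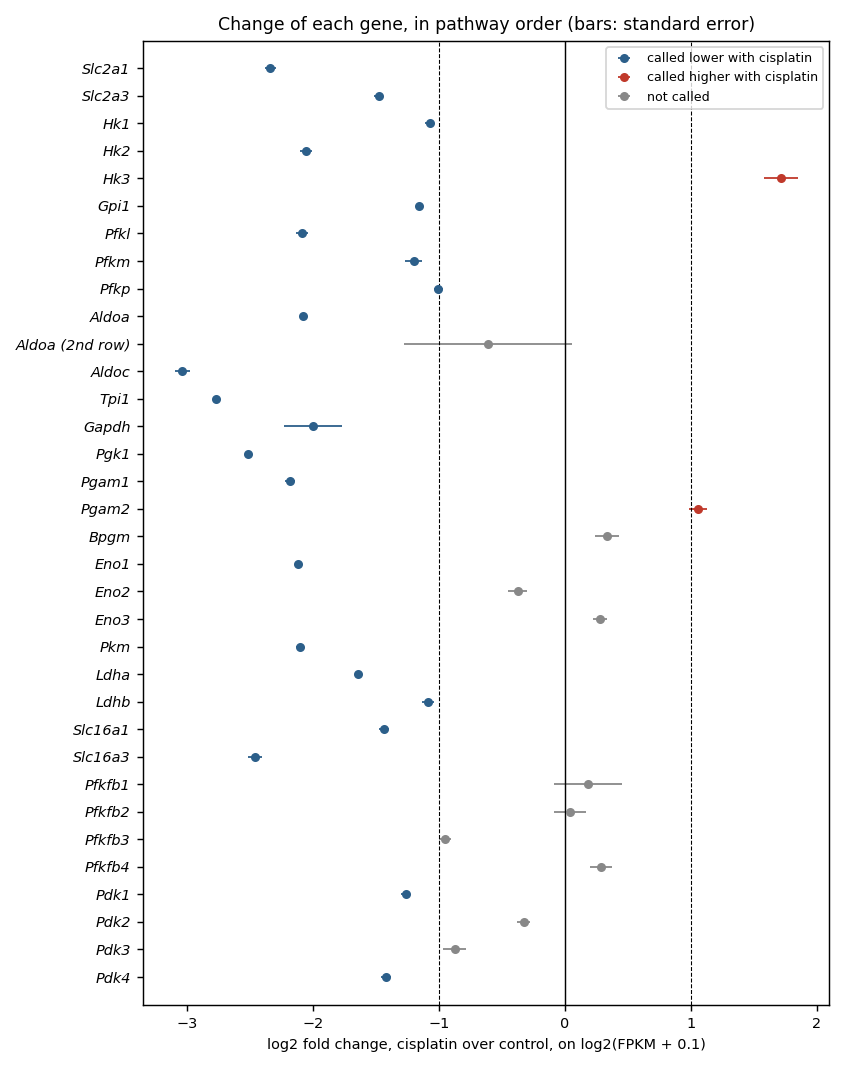
Log2 fold change of each gene, cisplatin over control, on the log2(FPKM + 0.1) scale in pathway order, with bars for the standard error of limma and dashed lines at a 2-fold difference. The blue points of the 22 rows called lower reach from -1.01 for Pfkp to -3.04 for Aldoc, and the red points are Hk3 at 1.72 and Pgam2 at 1.06.

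The steps from triose phosphate to pyruvate yield ATP. Tpi1, triosephosphate isomerase, was at 520, 539 and 532 FPKM in control and at 76.0, 79.7 and 77.6 FPKM in cisplatin (log2 fold change -2.77 ± 0.03 SE, adjusted p = 5.9e-08). Pgk1 (ENSMUSG00000062070, chrX:106187100-106203699, plus strand), phosphoglycerate kinase, was the most abundant of all the genes described, at 1021, 1035 and 1070 FPKM in control and at 184, 183 and 180 FPKM in cisplatin (-2.51 ± 0.03 SE, adjusted p = 5.9e-08). The groups were widely apart for both, 6.82-fold for Tpi1 and 5.72-fold for Pgk1. Pkm, pyruvate kinase, fell from 737 ± 21.9 FPKM to 171 ± 3.07 FPKM (-2.10, adjusted p = 1.1e-07). The table counts Pkm as 1 gene, so its M1 and M2 splice forms were not told apart.

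Gapdh, glyceraldehyde-3-phosphate dehydrogenase, was listed at 22.4, 11.2 and 15.6 FPKM in control and at 3.97, 4.02 and 3.63 FPKM in cisplatin (log2 fold change -2.0 ± 0.23 SE, adjusted p = 0.00036). The groups did not overlap, but relative to their mean the control libraries spread more than for any other gene called lower, and the level was far under that of the neighbouring steps. In GENCODE transcripts of release M21, 95 other genes, of which 90 are pseudogenes, shared at least 150 bases with Gapdh at 95% identity or more. These copies held on average 4187 reads in control, 204% of the 2050 reads of Gapdh itself, and 1487 reads in cisplatin, against 522. Gapdh and its copies together were 3.16-fold lower in cisplatin. For the other genes described, near-identical copies held at most 2.41% of the gene's own reads, a share reached by Eno1 in control. The Gapdh level is therefore uncertain, and the sources used here do not say how reads that match several genes were counted.

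At phosphoglycerate mutase the 2 main isoforms moved in opposite directions. Pgam1, the broadly expressed form, was at 344, 353 and 347 FPKM in control and at 80.1, 76.0 and 73.8 FPKM in cisplatin (log2 fold change -2.18 ± 0.04 SE, adjusted p = 1.1e-07). Pgam2 (ENSMUSG00000020475, chr11:5801640-5803733, minus strand), the muscle form, was at 9.20, 10.1 and 8.85 FPKM in control and at 19.4, 18.4 and 21.2 FPKM in cisplatin (1.06 ± 0.07 SE, adjusted p = 2.6e-05). Neither gene had overlapping groups, and the log2 ratio of Pgam2 to Pgam1 was 3.24 higher, the largest difference of the 17 pairs. Pgam2 made up 2.60% ± 0.144 of the summed FPKM of the step in control and 19.6% ± 1.56 in cisplatin (SD, n = 3). With a pseudocount of 1 the log2 fold change of Pgam2 was 0.99, and with the T-cell identity genes as the reference it was 0.50, both under the limit of a call. Bpgm makes the 2,3-bisphosphoglycerate of red cells and was at 3.34 ± 0.401 FPKM in control and 4.22 ± 0.125 FPKM in cisplatin (0.33, adjusted p = 0.024). Its adjusted p was 0.0536 to 0.0751 when any library but control replicate 2 was left out, and its difference turned to -0.23 when centred on the T-cell genes.

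Enolase followed the same form. Eno1, the ubiquitous enzyme, was at 562, 563 and 558 FPKM in control and at 129, 131 and 127 FPKM in cisplatin (log2 fold change -2.12 ± 0.03 SE, adjusted p = 5.9e-08). Eno3, the muscle form, was at 11.1, 10.8 and 12.2 FPKM in control and at 13.7, 13.4 and 14.3 FPKM in cisplatin (0.28 ± 0.06 SE, adjusted p = 0.0051), whereas centring on the T-cell genes gave -0.28. Neither gene had overlapping groups, and the share of Eno3 in the step was 1.97% in control and 9.46% in cisplatin. Eno2, the neuronal form, fell from 4.02 ± 0.183 FPKM to 3.08 ± 0.129 FPKM (-0.38, adjusted p = 0.0045).

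**Figure D3:**
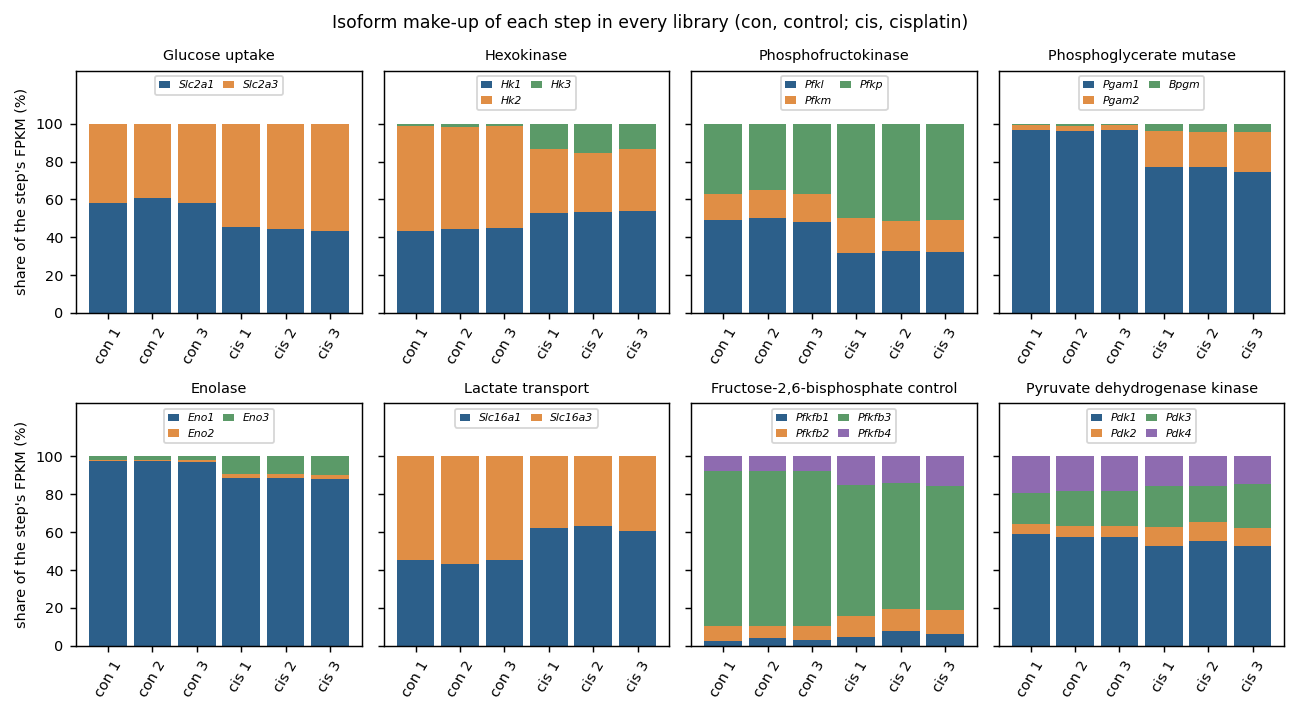
Share of each isoform in the summed FPKM of its step, in percent, for every control (con) and cisplatin (cis) library. The make-up differed between the groups at each step shown, with Hk3 going from 1.62% to 14.0% of hexokinase, Pgam2 from 2.60% to 19.6% of phosphoglycerate mutase and Slc16a3 from 55.5% to 37.8% of lactate transport.

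Lactate dehydrogenase and the lactate carriers close the pathway. Ldha, whose subunit favours the formation of lactate, was at 487, 506 and 507 FPKM in control and at 160, 161 and 160 FPKM in cisplatin (log2 fold change -1.64 ± 0.03 SE, adjusted p = 1.1e-07). Ldhb, whose subunit favours the return of lactate to pyruvate, fell from 41.3 ± 1.89 FPKM to 19.4 ± 0.643 FPKM (-1.09, adjusted p = 3.0e-06). Both fell, Ldhb less, and its share of the pair was 7.63% in control and 10.8% in cisplatin.

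Slc16a3 (ENSMUSG00000025161, chr11:120948480-120960868, plus strand) encodes MCT4, a carrier known for lactate export from glycolytic cells. It was at 42.1, 46.2 and 42.3 FPKM in control and at 7.47, 7.69 and 8.28 FPKM in cisplatin (log2 fold change -2.46 ± 0.06 SE, adjusted p = 2.6e-07). Slc16a1 encodes MCT1, which carries lactate in both directions. It was at 34.6, 34.8 and 35.3 FPKM in control and at 12.3, 13.4 and 12.8 FPKM in cisplatin (-1.44 ± 0.04 SE, adjusted p = 5.2e-07). Slc16a3 led in every control library and Slc16a1 in every cisplatin library. Bsg, the chaperone that brings both carriers to the cell surface, was at 560, 589 and 595 FPKM in control and at 100, 101 and 99.1 FPKM in cisplatin (-2.54, adjusted p = 5.9e-08).

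Phosphofructokinase is activated by fructose-2,6-bisphosphate, which 4 bifunctional kinases and phosphatases set. None of the 4 genes was called by limma or by limma-voom, with 1 lower and 1 higher at an unadjusted p under 0.05. Pfkfb3, the form with the highest kinase activity, was at 20.8, 20.6 and 20.1 FPKM in control and at 10.9, 10.98 and 9.88 FPKM in cisplatin (log2 fold change -0.95 ± 0.05 SE, adjusted p = 8.5e-06), just short of 2-fold, and at -1.51 when centred on the T-cell genes. Pfkfb4 was at 1.92, 1.97 and 1.83 FPKM in control and at 2.37, 2.33 and 2.35 FPKM in cisplatin (0.29 ± 0.09 SE, adjusted p = 0.031). Its groups did not overlap, but without any 1 library its adjusted p was 0.0537 to 0.0856, and centring on the T-cell genes gave -0.27. Pfkfb2, known from heart, and Pfkfb1, known from liver and muscle, had overlapping groups at means of 0.862 to 1.83 FPKM and adjusted p-values of 0.81 and 0.60. Pfkfb3 held 81.9% of the summed FPKM of the 4 genes in control and 67.1% in cisplatin.

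The pyruvate dehydrogenase kinases inhibit pyruvate dehydrogenase and so hold back the oxidation of pyruvate in the mitochondria. All 4 genes were lower at the adjusted p (29.0% of all genes), and 2 of them were called lower (12.8% of all genes). Pdk1, known as induced in hypoxia, was at 75.1, 71.7 and 72.8 FPKM in control and at 29.3, 31.1 and 30.8 FPKM in cisplatin (log2 fold change -1.27 ± 0.04 SE, adjusted p = 5.6e-07). Pdk4, known as induced by fasting, was at 24.3, 22.8 and 23.3 FPKM in control and at 8.75, 8.65 and 8.66 FPKM in cisplatin (-1.42 ± 0.04 SE, adjusted p = 4.8e-07). Pdk3 fell by less than 2-fold, from 22.4 ± 1.22 FPKM to 12.2 ± 1.42 FPKM (-0.88, adjusted p = 0.0002). Pdk2 was nearest to its control level, at 7.05 ± 0.267 FPKM in control and 5.60 ± 0.0187 FPKM in cisplatin (-0.33, adjusted p = 0.0016). The log2 ratio to Pdk1 rose by 0.94 for Pdk2 and by 0.39 for Pdk3, and for Pdk4 it changed by -0.16.

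In order of the log2 fold change, the rows ran from Aldoc and Tpi1 to Pgk1, Slc16a3 and Slc2a1 at the lower end, and to Pgam2 and Hk3 at the upper end. The falls of Slc2a1, Pgk1 and Slc16a3 lay within the range of the ID8 markers, of which 7, 8 and 8 of the 15 tested fell less. For each of Gpi1, Pfkm and Pdk1, 2 of 15 markers fell less, and for Hk1, Pfkp and Ldhb 1 of 15, which was Epcam (-0.08).

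With the 20 T-cell identity genes in place of the library total as the reference, the median of all genes moved from 0.03 to -0.53 and the share of lower calls among all calls went from 75.7% to 96.2%. Under quantile normalization these were 0.16 and 64.6%. Centring on the T-cell genes shifts the log2 fold change of every gene down by the same amount. Rows that were already lower could therefore only go lower. Under this centring 24 rows were called lower, as were 3649 of 15874 genes. Hk3 was the 1 row still called higher (1.16), as were 146 of the 15874 genes. The isoform ratios do not depend on such scaling.

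**Figure D4:**
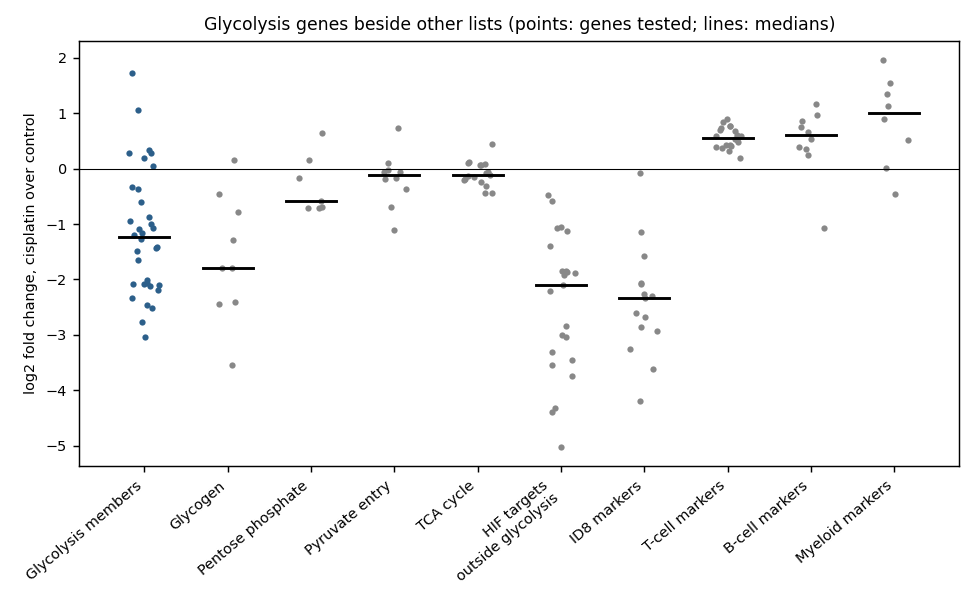
Log2 fold change of each tested gene in the glycolysis set (blue) and in 9 other gene lists (grey), cisplatin over control, with a black line at the median of each list. The glycolysis genes lie at a median of -1.23, glycogen genes at -1.79 and HIF targets outside glycolysis at -2.11, whereas the TCA cycle lies at -0.11 and T-cell markers at 0.55.

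Other genes around glycolysis were lower in a part of the branches only. Of 62 further pathway genes, 49 were tested. In limma 13 were called lower (12.8% of all genes) and none higher (4.11% of all genes). At the adjusted p 29 were lower (29.0% of all genes) and 9 higher (27.5% of all genes). At an unadjusted p under 0.05 it was 29 and 12, for which no share over all genes is given. Limma-voom called none higher, and 1127 of 18541 genes in all. With the T-cell genes as the reference, 24 were called lower, as were 3649 of 15874 genes. The same shares of all genes stand beside the lists that follow. In glycogen metabolism, which draws on glucose-6-phosphate, 6 of 9 genes were called lower with a median of -1.79. Among them Pgm2, a phosphoglucomutase, was at 203, 208 and 209 FPKM in control and at 17.5, 17.6 and 17.7 FPKM in cisplatin (log2 fold change -3.55 ± 0.03 SE, adjusted p = 1.6e-08). The branching enzyme gene Gbe1 fell from 13.2 ± 1.03 FPKM to 2.34 ± 0.168 FPKM (-2.45, adjusted p = 1.2e-06). Gyg, the primer of glycogen synthesis, was slightly higher (0.15, adjusted p = 0.012), but at -0.41 when centred on the T-cell genes. In the pentose phosphate pathway none of 7 genes was called by limma or limma-voom, with 4 lower and 2 higher at the adjusted and the unadjusted p alike, whereas 4 were called lower when centred on the T-cell genes. There Taldo1, transaldolase, fell from 111 ± 5.22 FPKM to 67.7 ± 3.46 FPKM (-0.71, adjusted p = 3.5e-05), and Rpia, ribose-5-phosphate isomerase, rose from 4.06 ± 0.431 FPKM to 6.41 ± 0.402 FPKM (0.65, adjusted p = 0.0011, but 0.09 when centred).

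Genes that take pyruvate into the mitochondria and oxidise it changed little beside the glycolysis genes. Of 10 genes for pyruvate entry 1 was called lower (12.8% of all genes), the carrier subunit Mpc1 (6.23 ± 0.679 FPKM to 2.87 ± 0.522 FPKM, log2 fold change -1.10, adjusted p = 0.00067). The phosphatase gene Pdp2, which reactivates pyruvate dehydrogenase, rose (0.74, adjusted p = 6.3e-05, and 0.18 when centred) and its relative Pdp1 fell (-0.69, adjusted p = 0.0006). Of 17 TCA cycle genes none was called in either direction by limma or limma-voom. At the adjusted p 6 were lower (29.0% of all genes) and 1 higher (27.5% of all genes). At an unadjusted p under 0.05 it was 8 lower and 3 higher. When centred on the T-cell genes, 1 was called lower and the median moved from -0.11 to -0.67. The succinate dehydrogenase gene Sdhb rose from 20.4 ± 0.81 FPKM to 27.7 ± 1.13 FPKM (0.44, adjusted p = 0.00026, but -0.12 when centred). Of 4 tested genes of gluconeogenesis and sugar phosphate control, the pyruvate carboxylase gene Pcx was called lower (-1.46, adjusted p = 7.2e-05).

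Genes that control transcription of the pathway were mixed. Of 13 genes, 3 were called lower (12.8% of all genes). Egln3, an oxygen-dependent hydroxylase of HIF that is itself induced in hypoxia, was at 168, 171 and 172 FPKM in control and at 13.2, 13.5 and 11.3 FPKM in cisplatin (log2 fold change -3.75 ± 0.07 SE, adjusted p = 1.2e-07). Mlxipl, a glucose-sensing factor, fell from 9.35 ± 0.925 FPKM to 1.14 ± 0.0912 FPKM (-2.93, adjusted p = 1.3e-06). Hif1a was at 48.97, 48.5 and 50.1 FPKM in control and at 62.9, 64.3 and 68.5 FPKM in cisplatin (0.41, adjusted p = 0.00015), but at -0.15 when centred on the T-cell genes. Myc was at 0.17 (adjusted p = 0.0038) and, when centred, at -0.39. Of 23 known HIF targets outside glycolysis, 21 were called lower (12.8% of all genes) with a median of -2.11. The collagen crosslinking enzyme gene Lox, which mesenchymal cells are known to express, was at 34.6, 34.7 and 33.9 FPKM in control and at 1.22, 1.07 and 0.686 FPKM in cisplatin (-5.02, adjusted p = 1.6e-06). The part of changed cell make-up in these lists was not tested.

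Of 16 further genes of the same steps outside the 33 symbols, Bsg among them, 6 reached the level that was tested. Ldhd, the D-lactate dehydrogenase, fell from 4.82 ± 0.657 FPKM to 0.818 ± 0.0407 FPKM (log2 fold change -2.41, adjusted p = 9.0e-06). The carrier gene Slc2a6, known from leukocytes, was at 3.83, 4.02 and 4.06 FPKM in control and at 7.14, 7.78 and 6.98 FPKM in cisplatin (0.86, adjusted p = 4.4e-05, and 0.30 when centred). The ADP-dependent glucokinase gene Adpgk was at 3.79 ± 0.264 FPKM in control and 5.39 ± 0.448 FPKM in cisplatin (0.50, adjusted p = 0.0029, but -0.07 when centred). Of the 34 glycolysis rows, 18 overlap another annotated gene, and whether reads were counted by strand is not given in the sources used here. Some of these neighbours were lower in cisplatin like the glycolysis gene they overlap. Spsb2, on the other strand of Tpi1, was at 13.5 FPKM in control and 3.83 FPKM in cisplatin, and AC160637.1, on the same strand as Pkm, was at 37.6 and 8.91 FPKM. Others were higher, such as Senp1 within the Pfkm locus (7.53 and 9.93 FPKM), Pitrm1 at Pfkp (9.55 and 12.3 FPKM) and Iffo1 at Gapdh (9.07 and 13.9 FPKM).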

How the data were processed

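The authors removed low-quality reads, aligned the rest, counted reads per known gene and deposited FPKM per gene for 6 libraries, 3 per group, of T cells cultured with ID8 cells. The submitters' processing notes name fastp, HISAT2 2.0.5 and featureCounts 1.5.0-p3 on mm10, whereas the study's methods name LifeScope. Which of these made the table could not be settled, and counting by strand and of reads with several matches is not given in the sources used here. The authors tested raw counts with DESeq2. Here DESeq2 was not run. The main fit used FPKM, and limma-voom on reads rebuilt from the FPKM was run as an alternative. The table holds 0 further columns of samples.

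The 15874 genes whose mean reached 0.5 FPKM were tested on log2(FPKM + 0.1) with limma 3.58.1 in R 4.3.3 (lmFit and eBayes with a trend), cisplatin against control, with Benjamini-Hochberg adjustment over all of them. Calls needed an adjusted p under 0.05 and a log2 fold change of 1 or more in size, the limits of the study. Isoform pairs were compared by the log2 ratio within each library in an exact two-sided permutation test. Groups came from the sample titles. The sources do not say which mice or cultures the libraries came from, so p-values measure the spread between these libraries, which may be technical. No 2 libraries agreed within counting noise. FPKM times gene length gave whole reads within 0.1 for 100% of values. The ± beside a share of these reads is the SD over the 3 libraries of a group. Near-identical copies were found with blastn 2.17.0 on GENCODE transcripts. The steps were tested on simulated data.

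The genes, lists and pairs were chosen with earlier results of these data known. All 33 symbols are named, and of every other list the 2 largest rises and 2 largest falls at an adjusted p under 0.05, with marker genes beside the results they touch. The text leaves out some of these named list members. Alternatives were other pseudocounts (0.01 and 1), filters (none and 5 FPKM), scalings (median of ratios, quantile, T-cell identity genes, TPM), no variance trend, limma-voom on the rebuilt reads, a replicate block and leaving out each library. The human and macrophage data of the study were not analysed here. Python 3.11.15, pandas 2.3.3 and matplotlib 3.10.9 were used for tables and figures.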

Additional observations from a re-analysis of the deposited data

How the results depend on the processing

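The 22 lower calls were 20 to 24 under all alternatives run, with 21 to 22 when 1 library was left out and 20 with limma-voom on the rebuilt reads, where Hk1 (-0.99) and Pfkp (-0.93) were just under 2-fold. Of 571 values of single rows under the alternatives, 549 kept their direction and side of the adjusted p threshold. All 153 values of the isoform pairs kept their direction. Their p-values could not pass the threshold under any alternative, and the values under the replicate block repeat the main value by construction. The 2 higher calls became 1 with a pseudocount of 1, 1 when a mean of 5 FPKM was required (27 rows tested, so that Hk3 was not among them) and 1 when centred on the T-cell genes, and they were 2 in each fit without 1 library. The 5 rows higher at the adjusted p became 2 under that filter, 2 under that centring and 3 to 4 without 1 library. The 26 lower at the adjusted p were 26 without any 1 library. The median was -1.48 under that filter, -1.80 under that centring and -1.25 to -1.22 without 1 library. Among other pathway genes, quantile normalization gave 1 higher call and the centring gave 24 lower calls.

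Under the T-cell centring the differences turned to -0.23 for Bpgm, -0.28 for Eno3, -0.38 for Pfkfb1, -0.52 for Pfkfb2 and -0.27 for Pfkfb4. Without cisplatin replicate 2 Pfkfb1 was at -0.0045 and Pfkfb2 at -0.0085, and without control replicate 2 Pfkfb2 was at -0.029, over ranges of -0.0045 to 0.36 for Pfkfb1 and -0.029 to 0.12 for Pfkfb2 when each library was left out. The cause was not tested beyond what the centring itself shifts. Over all genes, a pseudocount of 1 gave 1451 lower and 311 higher calls against 2034 and 653, centring 3649 and 146, and voom 2423 and 1127. With the replicate number as a block, 22 rows were called lower and 2 higher, and Pfkfb4 had an adjusted p of 0.0824. Same-numbered libraries had correlations of 0.023, -0.063 and -0.021 in their deviations, and libraries of different numbers had -0.061 to 0.083. The sources do not say whether equal numbers share a mouse or culture, and these values cannot settle it. By construction the block leaves each isoform difference at its value. With 3 libraries per group, the exact tests could not go below p = 0.1.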
